A study of Homo sapiens with 18 samples.

Results

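The genes described here are named for the translation initiation factors, the proteins that load ribosomes onto messenger RNA and find the start codon. A name alone does not show that each product has that role. They were chosen by name, as the genes whose symbol begins with EIF and a digit from 1 to 6, with the eIF2 kinases (EIF2AK) left out. Of 13358 genes in the deposited table, 50 had such a name, and 49 of them reached a value of 1 in at least 3 of the 18 libraries. That filter kept 11110 genes of the whole table. The member it removed, EIF4E3, a relative of the cap-binding protein, stayed between 0.01 and 0.19 in every library.

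RNA was measured by strand-specific poly(A) sequencing of HUDEP1, an immortalised human erythroid progenitor line, in 3 clones and 2 conditions with 3 libraries per group. Clone FL expressed full-length GATA1, a transcription factor that red cell formation depends on, and clones 1D5 and 1KI9 expressed its short isoform GATA1s, which lacks the N-terminal part. All cultures received erythropoietin at 3 U/mL, doxycycline at 1 µg/mL and stem cell factor at 50 ng/mL. For expansion the base was SFEM II and 1 µM dexamethasone was present. For the 4 days of differentiation the base was IMDM, dexamethasone was not listed, and the additions were serum (2% fetal bovine and 3% human AB), holo-transferrin at 1 mg/mL, insulin at 10 µg/mL and heparin at 3 U/mL. There was 1 FL clone, so genotype and clone cannot be told apart, and the day 4 cultures differed from expansion in medium as well as in time. Whether replicates were grown separately is not stated in the labels, and the spread behind the p-values may be technical. Gene-level values do not separate the GATA1 isoforms and therefore do not check the genotype labels.

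In initiation, eIF2 brings the initiator tRNA to the small ribosomal subunit as a complex with GTP, and eIF2B recharges eIF2 for the next round. The large eIF3 complex and the small factors eIF1 and eIF1A hold the subunit open for scanning, while eIF4E binds the messenger's cap, eIF4G bridges the cap to the ribosome and the helicase eIF4A unwinds the leader. eIF5 triggers GTP hydrolysis at the start codon, eIF5B joins the large subunit, and the 4E-binding proteins (EIF4EBP genes) block eIF4E unless mTOR phosphorylates them. Erythroid cells couple initiation to heme supply through the heme-regulated eIF2 kinase HRI (gene EIF2AK1), because most of their protein synthesis goes into globin.

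Several members have near-identical copies, and RSEM, the counting tool named in the submitters' processing notes, divides reads among such copies, so their separate values are uncertain. EIF5AL1 matched EIF5A at 98.9% of aligned coding bases, EIF2S3B matched EIF2S3 at 98.2%, and the coding sequences of EIF3C and EIF3CL were identical over 2739 aligned bases, whereas EIF5A2 matched EIF5A at 71.9%. The stretch from codon 40 to codon 60 of the 3 EIF5A genes shows this. It surrounds the lysine codon at position 50, the residue that is converted to hypusine and without which eIF5A does not work. Sequences are GENCODE release 29 coding sequences, 5′ to 3′, and capitals mark bases that differ from EIF5A.
EIF5A: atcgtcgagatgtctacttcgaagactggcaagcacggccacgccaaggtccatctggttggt
EIF5AL1: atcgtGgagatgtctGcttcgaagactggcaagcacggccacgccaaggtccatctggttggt
EIF5A2: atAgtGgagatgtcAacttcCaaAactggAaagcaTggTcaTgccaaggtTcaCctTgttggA
EIF5AL1 differed at 2 of these 63 bases and EIF5A2 at 13. In each library the value of EIF5A was between 92.1 and 120.5 times that of EIF5AL1, in both conditions and all clones. EIF5AL1 values, between 3.14 and 10.97, are therefore not described separately below, although the gene stays in the counts of members.

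The expansion values are TPM and the day 4 values a TPM-like signal with a further scaling, both per transcript length. Levels can therefore be ranked between genes within a library, at day 4 if the further scaling kept the order of genes. EIF4A1, the helicase subunit, had the highest mean of all members in each of the 6 groups. In the FL expansion libraries it stood at 1642, 1546 and 1849 TPM. EIF5A, at 1006, 1042 and 1140 TPM there, was in the same range of abundance. Grouped by name, the 14 eIF3 genes made up 39.6 to 43.7% of the members' summed value in a library. The 10 genes of the cap binding, scaffold and helicase group made up 26.4 to 31.2%. The 5 eIF2B genes, whose product acts catalytically, made up 1.33 to 1.89%. The start-codon and scanning genes took 6.2 to 6.83% in expansion and 8.67 to 12% at day 4. In FL, EIF1 went from rank 5 to rank 2 among the members while EIF1AX went from rank 28 to rank 37.

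Initiation factor RNA was lower at day 4 than in expansion in every clone. Together the 49 genes took 1.292 to 1.379% of the library total in FL expansion and 0.6632 to 0.6959% at day 4. For 1D5 these shares were 1.204 to 1.238% and then 0.8318 to 0.8757%, and for 1KI9 they were 1.186 to 1.281% and then 0.8949 to 0.9254%. No day 4 library overlapped an expansion library of its clone. Because the 2 conditions were scaled separately in the table, all libraries were put on 1 scale by median-of-ratios before single genes were tested between conditions, and the differences here are log2(value + 1) on that scale. On it, the FL sum was 11557 to 12474 in expansion and 9332.7 to 9567.1 at day 4, and 29 members (59.2%) fell in all 3 clones and 3 (6.12%) rose, against 27.5% and 28.3% of all genes tested. The members' median difference was -0.46 for FL, -0.43 for 1D5 and -0.34 for 1KI9, and the median of all genes was at most 0.02. The same 29 genes fell in all clones with the deposited values and with each library rescaled to the same total. This repeat is no separate support. Those 2 scalings moved the median of all genes down in each clone, to between -0.519 and -0.077. Of all genes tested, 3027 fell in all clones on the common scale, and 3027 (27.6%) fell under every scaling. No member rose in all clones under every scaling, against 14.4% of all genes.

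The groups follow gene names, which do not show that each product has the named role. EIF1AD, for example, is counted with start codon and scanning, and EIF4A3 and EIF4E2 with cap binding, scaffold and helicase. The genes that fell came from every group. They were 8 of the 10 cap-binding, scaffold and helicase genes, 4 of 5 eIF2B genes, 4 of 6 genes of eIF2 and its relatives, 7 of 14 eIF3 genes, 3 of 6 genes of the eIF5, eIF5A, eIF5B and eIF6 group (EIF5A, its copy EIF5AL1 and EIF5B), 2 of 4 start-codon and scanning genes, and EIF4EBP1. EIF1AX, which encodes eIF1A, had the largest mean difference over the 3 clones (-1.66), although in FL EIF4EBP1 fell further. Its deposited values were 112, 131 and 142 in FL expansion and 27.6, 27.03 and 31.2 in FL at day 4, and the difference on the common scale was -1.67 ± 0.07 (SE, adjusted p = 3.94e-13 by limma). In the GATA1s clones its expansion values of 88.0 to 110 gave way to 23.6 to 29.96, so that expansion and day 4 were far apart in each clone. EIF2S1, the α subunit of eIF2 and the one that the eIF2 kinases phosphorylate, went from 304, 352 and 354 in FL expansion to 95.9, 95.8 and 102 at day 4 (difference -1.30 ± 0.06, adjusted p = 1.39e-12). Its partner EIF2S2, the β subunit, had values of 109, 105 and 121 and then 81.2, 80.5 and 86.7 in FL, and its difference on the common scale did not pass the test there (0.04 ± 0.06, adjusted p = 0.532). The ratio of EIF2S1 to EIF2S2 inside a library does not change with a scaling by 1 factor per library. Whether the further day 4 scaling was of that kind is not stated. The ratio was 2.795 to 3.354 over all expansion libraries. At day 4 it was 1.172 to 1.189 in FL and 1.585 to 1.694 in the GATA1s clones. EIF2B3, the γ subunit of eIF2B, fell in FL from 40.2, 40.6 and 47.8 to 10.4, 10.4 and 11.8. EIF5A, which frees ribosomes stalled on difficult sequences, fell in FL from 1006, 1042 and 1140 to 335, 356 and 353, and in 1KI9 from 809, 900 and 853 to 366, 374 and 338.

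**Figure D1:**
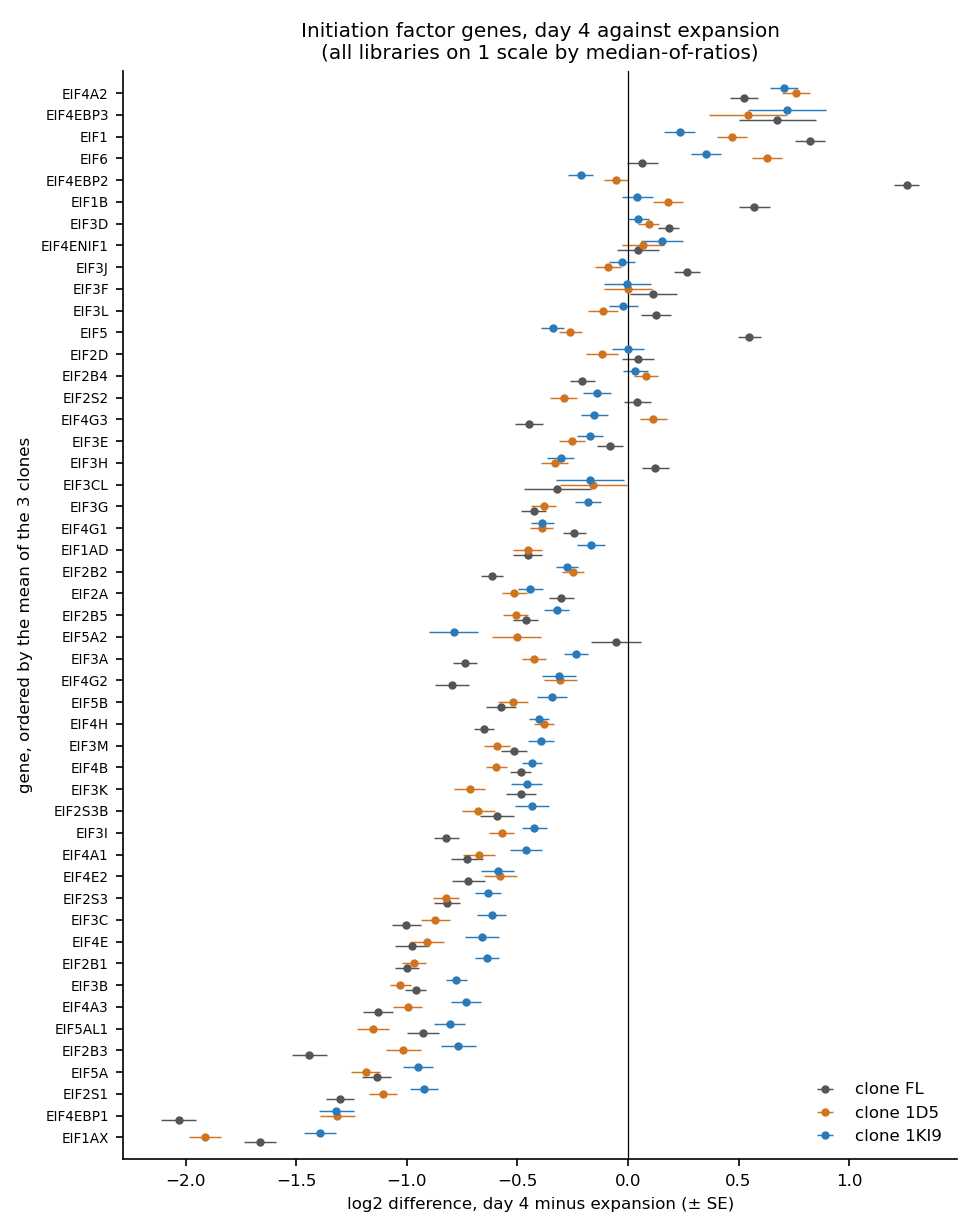
Log2 difference, day 4 minus expansion, for the 49 initiation factor genes in clones FL, 1D5 and 1KI9 (points, with SE from the limma model on 3 libraries per group, all libraries on 1 scale by median-of-ratios), with genes ordered by their mean. Most points lie left of 0, EIF1AX and EIF4EBP1 lie furthest left, and EIF4EBP2, EIF5 and EIF6 show the clones apart.

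EIF1, EIF4A2 and EIF4EBP3 were the members that rose in all 3 clones on the common scale. EIF1, which guards against wrong start codons, had day 4 values of 738, 714 and 713 in FL against 576, 546 and 573 in expansion. In 1KI9 its deposited values overlapped, at 558, 584 and 541 against 562, 604 and 592, and the rise there depended on the scaling (0.23 on the common scale, -0.06 with deposited values). The helicase paralogs EIF4A1 and EIF4A2, whose coding sequences match at 77.3%, went apart. EIF4A1 fell in FL from 1642, 1546 and 1849 to 729, 718 and 740, while EIF4A2 had values of 251.2, 258 and 282 in expansion and 265, 270 and 287 at day 4. Within a library the ratio of EIF4A1 to EIF4A2 was 4.893 to 6.555 in expansion and 2.188 to 2.754 at day 4, with no overlap between conditions. It was lowest in 1KI9 in expansion (4.893 to 5.898) and highest in FL at day 4 (2.574 to 2.754).

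Promoter sequence was looked at because many members moved together between conditions. RefSeq promoters of GRCh38.p14 (250 bases before to 50 after the start, 300 in all) were found for 41 of the 49 members. The word CACGTG, the E-box that MYC family factors can bind and which reads the same on both strands, was in 11 of 41 (26.8%), against 943 of 8767 tested genes with a promoter (10.8%) and 7.4% of all 27305 promoters. It was as frequent among members that fell in all clones (7 of 26, 26.9%) as among the rest (4 of 15, 26.7%). The word GATAA on either strand, the core that GATA factors can bind, was in 2 of 41 (4.9%), against 13.6% of tested genes. A match is a description of letters, not a site of binding. Windows are shown only for members that fell in all clones, and only where they lay outside the annotated gene. EIF3K, EIF4B and EIF4E, which fell, and EIF1B, EIF3F, EIF4EBP3 and EIF5A2, which did not fall in all clones, also had the word. The following 60-base windows show the E-box, in capitals, upstream of 4 members that fell at day 4 in all clones. Each is written 5′ to 3′ on the gene's strand.
EIF2B3: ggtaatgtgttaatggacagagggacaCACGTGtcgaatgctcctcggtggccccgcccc
EIF4A3: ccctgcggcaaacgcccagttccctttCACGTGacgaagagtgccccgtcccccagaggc
EIF4G1: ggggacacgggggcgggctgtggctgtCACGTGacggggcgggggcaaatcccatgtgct
EIF4H: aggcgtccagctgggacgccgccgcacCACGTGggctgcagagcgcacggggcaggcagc
These windows lie at chr1:44986742-44986801 (minus strand) for EIF2B3, chr17:80147217-80147276 (minus strand) for EIF4A3, chr3:184314435-184314494 (plus strand) for EIF4G1 and chr7:74174130-74174189 (plus strand) for EIF4H. The capitals begin 179, 121, 144 and 199 bases before the gene start in the RefSeq promoter table.

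In expansion, the GATA1s clones differed little from FL in these genes, and mostly downward. A difference counted only if each GATA1s clone passed the limma test against FL (adjusted p of 0.05) and both had the same sign, although both contrasts use the same 3 FL libraries. EIF3A rose (2.04%) and 10 members fell (20.4%), where 17.5% of all genes tested rose and 8.98% fell. The members' median difference was -0.11, against 0.06 for all genes, and no member reached a 2-fold difference. After median-of-ratios 1 member rose (2.04%) and 21 fell (42.9%), against 14.7% and 15.5% of all genes. The genes that fell with the deposited values were EIF1AX, EIF2A, EIF2B3, EIF2S1, EIF2S2, EIF3G, EIF3I, EIF3J, EIF4G1 and EIF5. Of these, EIF1AX, EIF2S1, EIF2S2, EIF3G, EIF3I, EIF3J and EIF5 fell under all 3 scalings (7.81% of all genes did), as EIF3A rose (14.2%). EIF3J, the loosely bound eIF3 subunit, had 144, 158 and 171 TPM in FL, 129, 122 and 127 in 1D5, and 124, 130 and 137 in 1KI9. EIF3I, a core subunit, had 380, 381 and 389 in FL against 323 to 343 over the 6 GATA1s libraries. The FL libraries stood above all GATA1s libraries for both genes. The call of EIF4G1, the cap-complex scaffold (320, 394 and 349 in FL, 291 to 336 in the GATA1s clones), was marginal (adjusted p = 0.0497 in 1D5) and was lost under most alternatives. The call in both clones was lost for EIF1AX (mean difference -0.36) without FL replicate 3 (-0.285) or 1D5 replicate 3 (-0.345), and for EIF2B3 (-0.30) without FL replicate 3 (-0.218) or 1D5 replicate 2 (-0.281). EIF1AX, EIF2B3 and EIF2S1 were also not called in both clones when only the compared libraries were fitted.

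At day 4 the direction of many differences depended on how the libraries were scaled. With the deposited values, 21 members rose (42.9%) and 7 fell (14.3%) in both clones, against 51.2% and 14.3% of all genes tested. The median of all genes was itself 0.29 above FL, and the members' median was 0.15. Put on 1 scale by median-of-ratios, the median of all genes was -0.02, the members' median was -0.20, and 6 members rose while 24 fell (26.4% and 31.3% of all genes). With each library rescaled to the same total the all-gene median was 0.55 and the split was 38 against 2 (69.1% and 7.82% of all genes). The members' median lay below that of all genes in each case. Calls in opposite directions under different scalings were made for 14 members, most of the eIF3 genes among them, and no direction is given for those. The share of all genes called in both directions is not given, so this count is not read as a trait of the members. The same direction under all 3 scalings was found for 8 members. EIF2B2, EIF2B4, EIF3A, EIF4G2, EIF4G3 and EIF6 rose (12.2%) and EIF4EBP2 and EIF5 fell (4.08%), where 26.5% and 7.88% of all genes did so.

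**Figure D2:**
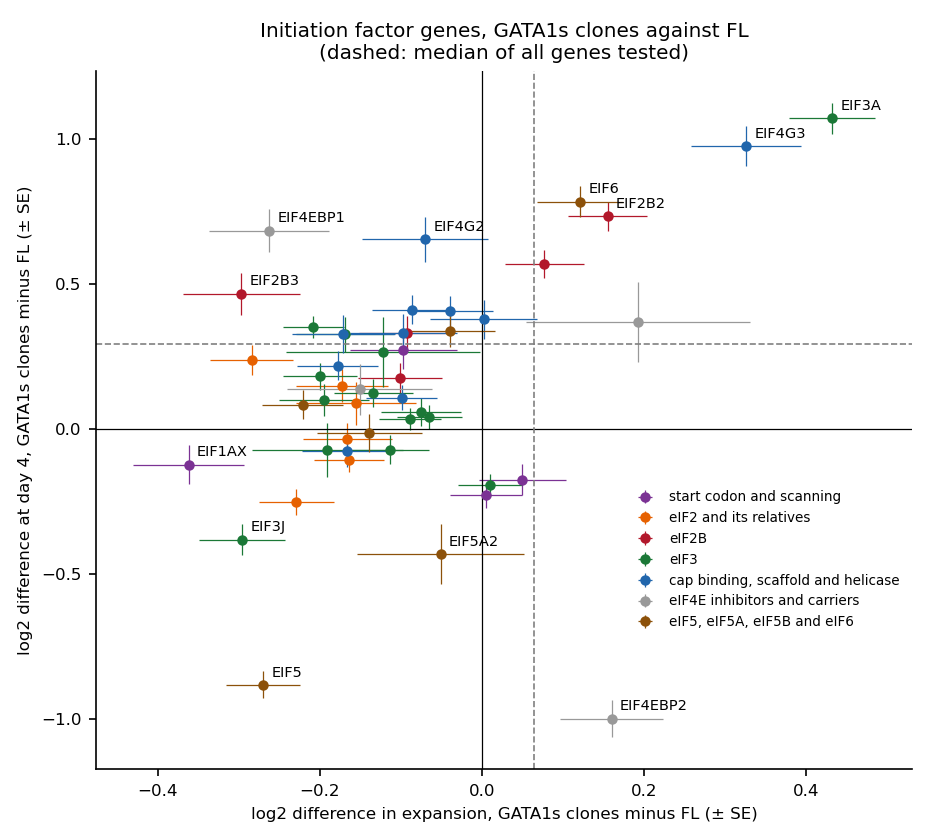
Log2 difference of the mean of both GATA1s clones from FL for each initiation factor gene, expansion on the horizontal and day 4 on the vertical axis (deposited values, SE from the limma model). Colours mark the groups of genes, which follow gene names. The dashed lines are the medians of all genes tested, 0.06 and 0.29, EIF3A and EIF4G3 lie at the upper right, and EIF5 and EIF4EBP2 lie near -0.9 and -1.0 at day 4.

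EIF3A encodes the scaffold on which the eIF3 complex is built (chromosome 10:119033670-119080823, hg38, minus strand), and its RNA was higher in both GATA1s clones in both conditions. In expansion it stood at 120, 120 and 122 TPM in FL, 164, 156 and 163 in 1D5, and 152, 170 and 175 in 1KI9. At day 4 it stood at 51.4, 52.5 and 52.0 in FL, 112, 96.3 and 111 in 1D5, and 114, 109 and 120 in 1KI9. In each condition the FL libraries were the lowest, with no overlap. The mean of both clones exceeded FL by 0.43 ± 0.05 in expansion (SE, adjusted p = 2.36e-06) and by 1.07 ± 0.05 at day 4 (adjusted p = 4.16e-12). On the median-of-ratios scale the same differences were 0.31 and 0.71. EIF3A was also higher relative to the other eIF3 genes. It was 0.313 to 0.316 times the median of the other eIF3 genes in FL expansion and 0.455 to 0.511 times in the GATA1s clones, and at day 4 the ratio was 0.235 to 0.257 in FL and 0.437 to 0.551 in the GATA1s clones. Against EIF3B, the subunit with which it forms the core, EIF3A stood at 0.4925 to 0.5031 in FL and 0.919 to 1.028 in the GATA1s clones at day 4. These ratios do not change with a scaling by 1 factor per library. Whether the further day 4 scaling was of that kind is not stated.

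In FL the 4E-binding protein genes EIF4EBP1 and EIF4EBP2 moved in opposite directions between conditions. EIF4EBP1, the most abundant of them here, had 212, 239 and 238 TPM in FL expansion and 38.8, 41.8 and 39.1 at day 4. It fell less in the GATA1s clones, from 218, 237 and 186 to 73.0, 83.0 and 70.7 in 1D5 and from 159, 178 and 179 to 59.3, 55.7 and 51.3 in 1KI9. Day 4 minus expansion was -2.03 ± 0.08 in FL and -1.31 and -1.32 in the clones. EIF4EBP2 (chromosome 10:70404379-70428618, hg38, plus strand) went the other way in FL, from 20.2, 21.2 and 19.2 to 34.7, 35.6 and 37.5, a rise of 1.26 ± 0.06 on the common scale (adjusted p = 5.9e-13) and of 0.80 with the deposited values. In 1D5 it had 20.4, 20.7 and 18.5 in expansion and 17.8, 15.5 and 17.8 at day 4, and in 1KI9 23.4, 27.3 and 26.97 and then 17.98, 17.4 and 18.6. At day 4 all 6 GATA1s libraries lay below FL for EIF4EBP2 (difference -0.999 ± 0.06, adjusted p = 1.13e-10), and the clones' ranges overlapped each other. The ratio of EIF4EBP1 to EIF4EBP2 within a library was 10.52 to 12.38 in FL expansion and 1.042 to 1.173 in FL at day 4. It was 10.06 to 11.43 and then 3.978 to 5.367 in 1D5, and 6.501 to 6.78 and then 2.759 to 3.296 in 1KI9. EIF4E, the cap-binding protein that they block, fell in all clones between the conditions, from 119, 150 and 153 to 53.0, 47.0 and 52.4 in FL.

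EIF5 (chromosome 14:103333544-103345025, hg38, plus strand), the GTPase-activating partner of eIF2, was lower in the GATA1s clones in both conditions. Expansion values were 222, 216 and 236 in FL, 197, 182 and 184 in 1D5, and 177, 188 and 187 in 1KI9, a difference of -0.27 ± 0.05 for the mean of both clones. At day 4 they were 227, 242 and 243 in FL, 144, 133 and 140 in 1D5, and 121, 114 and 119 in 1KI9, a difference of -0.88 ± 0.05 (adjusted p = 6.55e-12). Between conditions EIF5 fell in 1D5 and 1KI9 on every scaling. In FL the deposited values of the conditions overlapped (0.08, adjusted p = 0.172), and on the common scale EIF5 rose there (0.55, adjusted p = 1.73e-08). Its product works with that of EIF1 in start-codon choice. The ratio of EIF1 to EIF5 within a library at day 4 was 2.94 to 3.252 in FL and 4.444 to 5.416 in the GATA1s clones. In expansion the ratio was already apart, at 2.432 to 2.598 in FL, 2.842 to 2.963 in 1D5 and 3.169 to 3.213 in 1KI9.

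EIF6, EIF4G2, EIF4G3, EIF2B2 and EIF2B4 were higher in the GATA1s clones at day 4 under all 3 scalings. EIF6 (chromosome 20:35278911-35284985, hg38, minus strand), which keeps the large subunit from joining too early and is needed to make it, had 106, 101 and 95.8 in FL. All GATA1s values were above these, namely 154, 166 and 167 (1KI9) and 179, 187 and 197 (1D5). The difference of 0.78 ± 0.05 (adjusted p = 2.51e-10) was 0.42 on the median-of-ratios scale. In expansion EIF6 overlapped between FL and the GATA1s clones, at 125 to 144 against 131 to 162. EIF4G3, an eIF4G paralog, had 14.9, 14.9 and 14.3 in FL at day 4, 30.9, 26.9 and 32.0 in 1D5, and 30.6, 28.2 and 31.1 in 1KI9, which gave 0.97 ± 0.07 (adjusted p = 3.84e-10) and 0.64 after median-of-ratios. EIF4G2, the related scaffold that does not bind eIF4E, had 168 to 180 in FL and 261 to 282 in the GATA1s clones. EIF4G1, the main form, did not pass at day 4 with the deposited values (213, 219 and 213 in FL, 193 to 215 in the GATA1s clones). EIF2B2, the β subunit of eIF2B, had 21.5, 21.6 and 21.1 in FL, 35.2, 35.6 and 35.2 in 1D5, and 37.6, 37.9 and 35.9 in 1KI9 (difference 0.73 ± 0.05, adjusted p = 2.16e-10). EIF2B4, the δ subunit, had 20.8 to 21.6 in FL and 29.5 to 32.7 in the GATA1s clones. The FL libraries were below every GATA1s library for all 5 eIF2B genes with the deposited values, but EIF2B5 changed direction with scaling. At day 4 with those values 24 members, the eIF2B genes included, were separated in this way, 5 the other way, and 20 overlapped. The median of all genes was itself 0.29 above FL. How many of all genes were separated in this way was not tested, so the separation is not read as a trait of eIF2B.

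**Figure D3:**
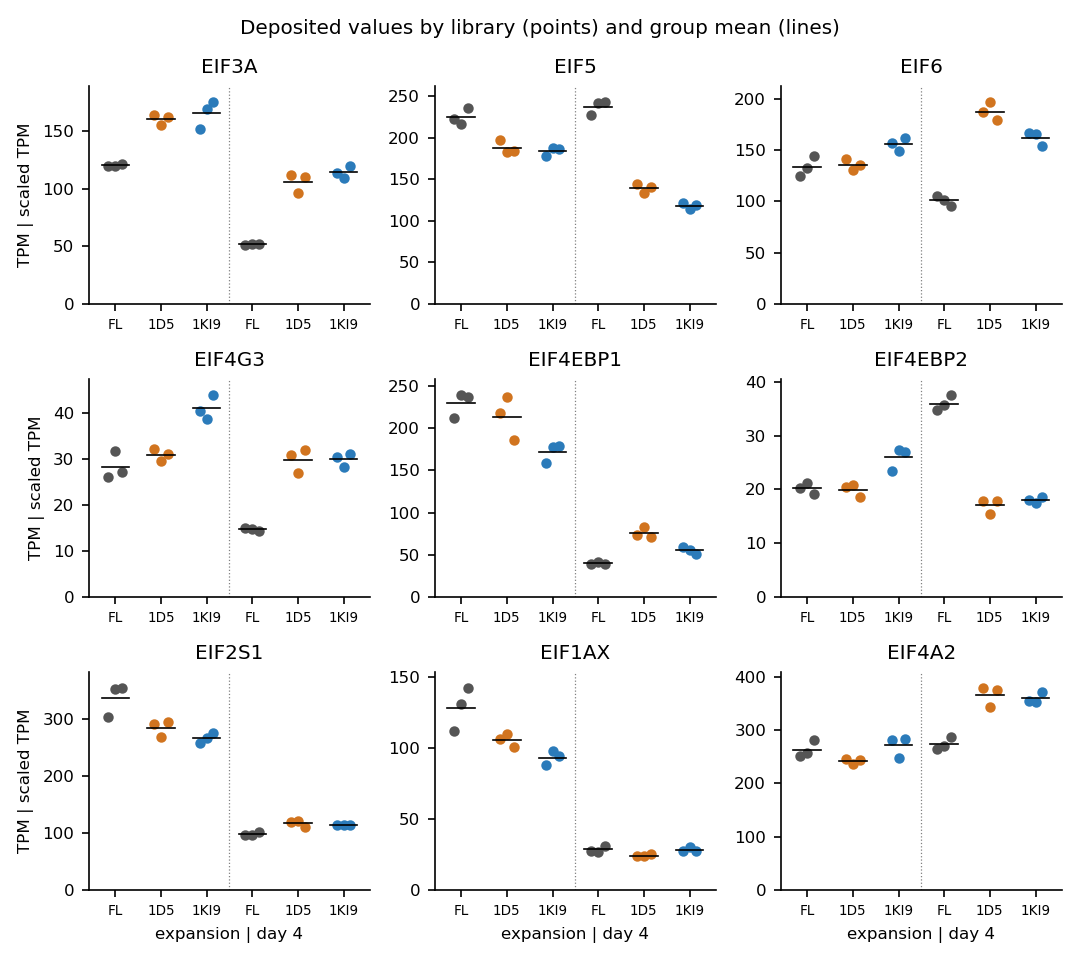
Deposited value of 9 initiation factor genes in each library (points) with the group mean (line), TPM in expansion at the left of each panel and scaled TPM at day 4 at the right, for clones FL, 1D5 and 1KI9. The FL points are the lowest for EIF3A in both conditions, and at day 4 they are the highest for EIF5 and EIF4EBP2 and the lowest for EIF6 and EIF4G3.

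Whether the genotype difference itself differed between conditions was tested as an interaction, day 4 minus expansion of the mean clone difference. With the deposited values 29 members had a positive interaction (59.2%) and 6 a negative one (12.2%), against 45.4% and 19.7% of all genes tested, and under all 3 scalings the counts were 15 and 2 members, where 31% and 11.5% of all genes did so. After median-of-ratios the interaction was positive for 15 members (30.6%) and negative for 10 (20.4%), against 31% and 30.7% of all genes, and with each library rescaled to the same total for 43 (87.8%) and 2 (4.08%), against 64.6% and 11.6%. All 5 eIF2B genes and 9 of the 10 cap-binding, scaffold and helicase genes had a positive interaction with the deposited values. EIF2B1, EIF2B2, EIF2B3 and EIF2B4 had it under all 3 scalings, as did 5 of the 10 (EIF4A2, EIF4A3, EIF4G2, EIF4G3 and EIF4H). EIF4EBP2 had the largest interaction of any member, -1.16 ± 0.09 (adjusted p = 9.27e-09), followed by EIF4EBP1 at 0.95 ± 0.10 and EIF2B3 at 0.76 ± 0.10. For EIF2B3 the clones stood below FL in expansion (40.2 to 47.8 in FL, 30.2 to 36.8 in the GATA1s clones) and above it at day 4 (10.4 to 11.8 against 14.1 to 16.6), and the day 4 difference was 0.13 on the median-of-ratios scale.

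**Figure D4:**
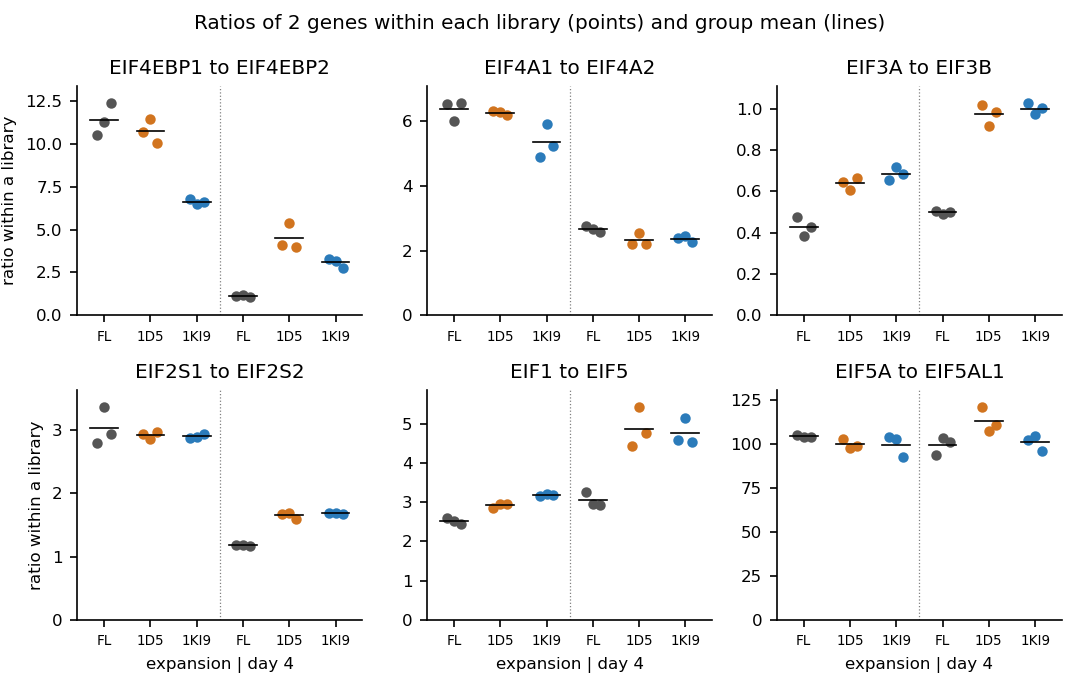
Ratio of the deposited values of 2 genes within each library (points) with the group mean (line), for 6 gene pairs in clones FL, 1D5 and 1KI9 in expansion (left of each panel) and at day 4 (right). EIF4EBP1 to EIF4EBP2 falls to between 1.042 and 1.173 in FL at day 4, EIF3A to EIF3B is higher in the GATA1s clones in both conditions, and EIF5A to EIF5AL1 stays near 100.

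How many members differed between the GATA1s clones, and which way, depended on the scaling. In expansion 9 passed between 1KI9 and 1D5, 18.4% where 40.6% of all genes tested passed. Of these, 7 were higher in 1KI9 (14.3% of members, 33.4% of all genes) and 2 lower (4.08% and 7.16%). After median-of-ratios 25 passed in expansion, 2 of them higher in 1KI9 (4.08% of members, 19.2% of all genes) and 23 lower (46.9% and 25.8%). At day 4, 5 passed (10.2% against 19.2%), 1 higher (2.04% against 12.5%) and 4 lower (8.16% against 6.69%). At day 4 after median-of-ratios 6 passed, all lower (12.2%, against 10.4% of all genes higher and 10.2% lower), and with each library rescaled to the same total 15 were higher (30.6% against 24.2%) and 2 lower (4.08% against 4.33%). Under all 3 scalings EIF4G3 and EIF4EBP2 were higher and EIF4EBP1 and EIF5A lower in 1KI9 in expansion, and EIF1 and EIF4EBP1 were lower in 1KI9 at day 4. Of all genes, 19.3% were higher and 6.43% lower in this way in expansion, and 10.2% and 4.29% at day 4. In expansion the difference of EIF4EBP1 (-0.31 ± 0.09) was not called without 1D5 replicate 2 (-0.231, adjusted p = 0.0541 by limma). EIF4G3 had 32.1, 29.6 and 31.1 TPM in 1D5 and 40.5, 38.8 and 44.0 in 1KI9 in expansion (difference 0.40 ± 0.08, adjusted p = 0.000578), with no overlap. EIF4EBP1 at day 4 differed by -0.44 ± 0.09 (adjusted p = 0.00135), with 70.7 to 83.0 in 1D5 and 51.3 to 59.3 in 1KI9. EIF5 at day 4 was also lower in 1KI9 (-0.24 ± 0.05, adjusted p = 0.00388), though not under every scaling.

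Genes that act on these factors were taken from 5 lists, to be read against the 17.5% of all genes that rose and 8.98% that fell in expansion and the 51.2% and 14.3% at day 4. Of 7 genes for eIF2 kinases, phosphatase subunits and IMPACT, an inhibitor of the kinase GCN2, 3 rose (42.9%) and 2 fell (28.6%) at day 4, while in expansion their median difference was 0.04 and EIF2AK1 did not pass in either clone (adjusted p = 0.4 and 0.864). EIF2AK1, the heme-regulated kinase HRI, had 320, 322 and 344 in FL at day 4, 157, 141 and 152 in 1D5, and 127, 127 and 124 in 1KI9, against 77.5 to 96.5 over all expansion libraries. Its day 4 difference from FL was -1.25 ± 0.06 (adjusted p = 5.04e-12). PPP1R15A (GADD34) is the stress-induced subunit that removes the phosphate from eIF2. At day 4 it had 182, 184 and 171 in FL, 92.3, 98.1 and 91.6 in 1D5, and 93.2, 92.0 and 86.5 in 1KI9. FL was above both clones for both genes at day 4. In expansion PPP1R15A had 46.9 to 58.4 in FL, 52.6 to 60.4 in 1D5 and 66.4 to 72.7 in 1KI9. Of 13 genes of mTOR and MNK control, 1 rose and 1 fell in expansion (7.69% each). MKNK2, a kinase of eIF4E, rose by 0.52, and LARP1, the binder of messages for the translation machinery, fell (-0.27). At day 4, 4 of these 13 rose (30.8%) and 5 fell (38.5%) with the deposited values. They included TSC1, an inhibitor of mTOR signalling, at -0.58, and MTOR itself at 0.46. RHEB was also higher in the GATA1s clones, with means of 28.7 in FL, 40.7 in 1D5 and 40.0 in 1KI9. The means of RPTOR were 5.44, 7.72 and 8.26 in that order. After median-of-ratios 0 of the 13 rose and 5 fell (38.5%), where 26.4% and 31.3% of all genes did. The rise of MTOR was therefore not called on that scale.

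The remaining lists were partners and neighbours of initiation. Among 17 cap, poly(A) and recycling partners, 2 rose (11.8%) and 1 fell (5.88%) in expansion, and 8 rose (47.1%) and 3 fell (17.6%) at day 4. PAIP2, which restrains poly(A)-binding protein, had 70.0, 86.4 and 81.7 in FL expansion, 92.9, 102 and 96.0 in 1D5, and 120, 126 and 120 in 1KI9. CYFIP1, a partner of eIF4E, was the other gene of that list that rose in expansion, by 0.44. At day 4 BZW1, a mimic of eIF5, differed most, at 47.2, 43.8 and 49.5 in FL, 89.4, 81.7 and 82.3 in 1D5, and 95.1, 95.6 and 109 in 1KI9. ABCE1, which splits ribosomes for reuse, rose by 0.71. DOHH, the second enzyme of hypusine formation, was the member of that pair that passed with the deposited values. It was lower in expansion (-0.37) and higher at day 4 (0.35). At day 4 after median-of-ratios 0 of the 2 genes of the pair were called higher, so the rise of DOHH depended on the scaling. Among 9 elongation and termination factors 5 fell (55.6%) in both clones in each condition. EEF1D, an exchange subunit for the elongation factor, showed it with 860, 875 and 814 in FL, 727, 774 and 639 in 1D5, and 551, 632 and 618 in 1KI9 in expansion. Unless stated otherwise, the counts and differences for these lists use the deposited values, and they move with the scaling in both conditions. In expansion after median-of-ratios, 2 of the 17 partners rose and 7 fell (41.2%), where 15.5% of all genes fell. Day 4 counts move as they do for the initiation factors.

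Other features of the libraries moved with the comparisons. All 12 erythroid markers were at 1 or more in every group. Their summed value was 42860 to 81620 in FL, 35100 to 53140 in 1D5 and 31000 to 34400 in 1KI9 in expansion, and 265600 to 282300, 124700 to 142700 and 70440 to 79910 at day 4. The 6 monocyte and neutrophil markers in the table summed to 44.36 to 48.32 in FL, 334.1 to 356 in 1D5 and 405.8 to 429.9 in 1KI9 at day 4, with CSF1R and CEBPA below 1 in all of them, and to 14.67 to 51.69, 58.94 to 72.48 and 221.7 to 264.1 in expansion. The 5 mast cell, basophil and eosinophil markers in the table summed to 539.4 to 876.8 in FL, 80.01 to 101.4 in 1D5 and 126 to 158.7 in 1KI9 in expansion, and to 351.2 to 369.1, 181.2 to 190.1 and 318.3 to 339.8 at day 4. In FL and 1D5 expansion FCER1A, HDC and TPSAB1 were below 1, so those sums rest on 2 markers. At day 4 FCER1A was below 1 in FL and 1D5, and HDC in FL. In 1KI9 all 5 were at 1 or more in both conditions. Megakaryocyte markers summed to 23.27 or less, with GP9 below 1 throughout, and lymphocyte and stromal markers to at most 3.51. The part of these differences in the results above was not tested. In bulk RNA, fewer cells of a type and less RNA per cell cannot be told apart, and a share of the library total falls where globin RNA rises. Library sums over all listed genes were 943734 to 950736 in expansion and 814583 to 1081251 at day 4, and read depth is unknown, so no counting interval is given.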

How the data were processed

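The authors deposited 1 table of gene values for 18 poly(A) RNA-seq libraries. Per the submitters' processing notes, Trim Galore 0.60, STAR 2.7 and RSEM 1.31 were used with hg38 (GRCh38.p12). The sources used here do not give the settings, such as that for strand. The deposited expansion columns are TPM. The deposited day 4 columns are a TPM-like signal whose sums exceed what TPM allows in FL, so a further scaling had been applied by an unstated method. Neither unit keeps read depth.

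The scale of analysis was log2(value + 1), on which changes of low genes are understated. Genes that reached 1 in at least 3 libraries entered 1 model with a mean for each of 6 groups, fitted with limma 3.58.1 in R 4.3.3 with a variance trend, after a check on simulated data. P-values were adjusted by Benjamini-Hochberg over all genes tested, with a threshold of 0.05. Genes listed at 0 throughout a condition (68 in expansion, 27 at day 4) were left out of its comparisons. Day 4 against expansion used median-of-ratios scaling, and other contrasts the deposited values. "All 3 scalings" means deposited values, median-of-ratios and a rescaling to the same total over genes not at 0 throughout a condition. Other alternatives were the pseudocount, the filter, the variance trend, fewer libraries in the fit, a replicate block and leaving out each library.

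The members and gene lists were chosen with earlier results of these data known. Genes were named by rule: the 6 largest differences called in both clones per condition, the 3 largest between GATA1s clones per condition, the 5 largest between conditions called in all clones, the 3 largest interactions, 9 core factors always (EIF1, EIF2S1, EIF3A, EIF4E, EIF4A1, EIF4G1, EIF4EBP1, EIF5A, EIF6), and of other lists the 2 largest called in both clones and EIF2AK1. Others named (such as EIF4A2, EIF2S2, EIF2B4, EIF3I and MTOR) were chosen after their values were seen. Gene positions and coding sequences are from GENCODE release 29, promoters from RefSeq (GRCh38.p14).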

Additional observations from a re-analysis of the deposited data

Results flagged for a closer look

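For 14 of the named initiation factor genes the difference between the GATA1s clones and FL differed between day 4 and expansion, by the interaction term of the limma fit on the deposited values (log2, day 4 minus expansion, adjusted over all genes). Genes were named partly for the size of this interaction or of the differences behind it, so their count carries no weight. Of all 49 members 71.4% had an interaction in either direction, against 65.1% of all genes tested. Positive values were found for EIF4EBP1 (0.946, adjusted p = 5.48e-07), EIF2B3 (0.763, adjusted p = 4.64e-06), EIF6 (0.662, adjusted p = 6.98e-07), EIF4G3 (0.649, adjusted p = 1.39e-05), EIF3A (0.638, adjusted p = 1.19e-06), EIF2B2 (0.577, adjusted p = 1.36e-06) and EIF2S1 (0.522, adjusted p = 7.3e-06). They were also found for EIF4E (0.427, adjusted p = 0.000688), EIF4A1 (0.396, adjusted p = 0.000104), EIF5A (0.304, adjusted p = 0.00106) and EIF1AX (0.239, adjusted p = 0.0365). The value was negative for EIF4EBP2 (-1.159, adjusted p = 9.27e-09), EIF5 (-0.612, adjusted p = 3.13e-07) and EIF1 (-0.234, adjusted p = 0.00346). The calls of EIF4E, EIF4A1, EIF5A, EIF1AX and EIF1 were not made under all 3 scalings, and those of the other 9 genes were. The median interaction of all genes was 0.214 with the deposited values and 0.013 after median-of-ratios.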

How the results depend on the processing

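Scaling moved the counts most. After median-of-ratios, 22 members (1 higher, 21 lower) passed in both clones in expansion in place of 11 (44.9% against 30.3% of all genes, in place of 22.4% against 26.4%), and 25 (2 higher, 23 lower) passed between 1KI9 and 1D5 in expansion in place of 9 (51.0% against 45% of all genes, in place of 18.4% against 40.6%). Rescaling to the same total gave 17 (15 higher, 2 lower) in place of 5 between 1KI9 and 1D5 at day 4. Of all genes, 28.6% passed there in place of 19.2%. With only the compared libraries in the fit, 5 passed in both clones in expansion. Leaving out 1 library at a time gave 8 to 14 members in both clones in expansion, 24 to 31 at day 4, 31 to 32 between conditions in all clones and 32 to 37 interactions. Between 1KI9 and 1D5 it gave 5 to 11 in expansion (5 without 1D5 replicate 2 or 1KI9 replicate 3) and 3 to 7 at day 4 (3 without 1KI9 replicate 3). Correlations of same-numbered deviations ran from -0.11 to 0.152 in expansion, where 7 of 9 comparisons correlated best with their own number, and from -0.152 to 0.429 at day 4, where 3 of 9 did. Not every pair was above 0.1 in either condition, so the numbers were not taken to pair the samples. With a replicate block the counts were 10, 27, 9, 6, 28 and 36 in place of 11, 28, 9, 5, 32 and 35. The shares of all genes called with only the compared libraries, with 1 library left out or with a replicate block are not given. Those counts are therefore not read as a trait of the members.

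Directions reversed for median-of-ratios in EIF1 (-0.118) and EIF6 (-0.001) in expansion and in EIF2S1 (-0.120), EIF4E (-0.025), EIF4A1 (-0.143) and EIF5A (-0.277) at day 4. Rescaling to the same total reversed EIF1 (0.064) and EIF4G1 (0.216) at day 4. EIF1 in expansion, from -0.02 to 0.02 when 1 library was left out, also reversed without FL replicate 2 (-0.020), 1D5 replicate 1 (-0.003) or 1KI9 replicate 2 (-0.006). EIF4EBP1 at day 4 was no longer called in both clones after median-of-ratios (0.329). Of the values for named members under all alternatives, 1027 kept direction and side of the threshold, 33 lost and 6 gained a call, and 11 reversed. The causes were not tested.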
